A study of Homo sapiens with 48 samples.

Results

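Of the 63955 broad H3K9me3 peaks deposited for the pancreatic cancer line ASPC1, 725 were annotated to an exon, and 665 of these overlapped no zinc finger gene. The 665 exon peaks are described here. A zinc finger gene was any of the 509 genes in the deposited count table whose symbol is ZNF, a number and at most 1 letter, and an overlap of 1 base removed a peak. The remaining 60 exon peaks, those over zinc finger genes, serve as a comparison.

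The study combined 30 RNA-seq and 18 CUT&RUN samples from established human pancreatic ductal adenocarcinoma lines. The H3K9me3 peaks come from ASPC1 cells with an inducible hairpin, either a control (shCTRL) or one against ZNF274 (shZNF274), with 3 samples per hairpin and doxycycline at 1 µg/ml for 9 days in both. Expression was read from 12 ASPC1 RNA-seq libraries, 3 in each of 4 groups: a control siRNA (siCTRL), an siRNA against ZNF274 (siZNF274), the solvent DMSO, and azacitidine (AZA) at 5 µM, which blocks DNA methyltransferases. The labels do not say whether the hairpin lines are clones, and all samples used are of 1 cell line.

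Trimethylation of lysine 9 on histone H3 marks condensed, transcriptionally silent chromatin and is written by enzymes such as SETDB1 and SUV39H1. ZNF274 is a KRAB-type zinc finger protein that binds DNA and, through the co-repressor TRIM28, brings SETDB1 to its sites, many of them at the 3′ exons of zinc finger genes. The mark also covers imprinted regions, clustered gene families and large silent domains, and it can lie over the body of a gene that is transcribed.

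The start sites inside the exon peaks differed widely in CG dinucleotides, the targets of DNA methylation, so windows that span this range are printed. RefSeq promoter windows (build GRCh38.p14, the same primary assembly as hg38) that lay wholly inside a member numbered 83, for 73 gene symbols in 47 peaks. The 250 bases before each start held a median of 4 CGs in these windows and of 11 in all 35116 RefSeq windows, and at least 1 CG was present in 85.5% and 93.9% of them. Many of the 83 windows lie in a single wide peak on chromosome 15, and some repeat, as for SNRPN and SNURF. The median of 4 therefore gives these windows more weight than a count by peak would. CG was searched as the letters CG, which read the same on both strands. The 6 windows below were chosen after their values were seen and show the 250 bases before the start, 5′ to 3′ on the gene's strand, with each CG in capitals. DRD1, a dopamine receptor gene, held 27 CGs at chr5:175444183-175444432 on the minus strand. SNURF, transcribed from the imprinting centre shared with SNRPN, held 12 at chr15:24954737-24954986 on the plus strand. MAGEC1, a cancer-testis antigen gene, held 11 at chrX:141903644-141903893 on the plus strand. PCDHB10, a clustered protocadherin, held 4 at chr5:141192103-141192352 on the plus strand. SEMG1, a seminal fluid protein gene, held 1 at chr20:45206783-45207032 on the plus strand. OR2L2, an olfactory receptor gene, held 0 at chr1:248029820-248030069 on the plus strand.
DRD1: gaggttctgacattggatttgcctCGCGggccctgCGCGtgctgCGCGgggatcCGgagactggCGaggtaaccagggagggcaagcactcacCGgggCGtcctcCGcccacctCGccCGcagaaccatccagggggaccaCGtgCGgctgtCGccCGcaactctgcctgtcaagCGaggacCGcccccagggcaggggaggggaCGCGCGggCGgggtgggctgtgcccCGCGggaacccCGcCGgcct
SNURF: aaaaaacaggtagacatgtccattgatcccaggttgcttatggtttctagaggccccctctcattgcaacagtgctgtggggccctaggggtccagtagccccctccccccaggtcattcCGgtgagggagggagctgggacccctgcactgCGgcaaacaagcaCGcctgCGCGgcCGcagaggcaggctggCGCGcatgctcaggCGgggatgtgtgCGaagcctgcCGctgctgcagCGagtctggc
MAGEC1: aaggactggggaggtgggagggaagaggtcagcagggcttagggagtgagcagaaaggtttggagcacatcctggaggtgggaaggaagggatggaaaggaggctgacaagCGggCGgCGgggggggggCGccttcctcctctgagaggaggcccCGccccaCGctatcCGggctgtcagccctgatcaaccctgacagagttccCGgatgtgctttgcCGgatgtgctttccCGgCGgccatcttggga
PCDHB10: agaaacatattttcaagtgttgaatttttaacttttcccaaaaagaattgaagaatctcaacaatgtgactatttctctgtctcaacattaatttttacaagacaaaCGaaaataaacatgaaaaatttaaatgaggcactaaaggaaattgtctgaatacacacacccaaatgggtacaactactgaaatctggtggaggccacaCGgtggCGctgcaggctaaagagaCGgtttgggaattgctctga
SEMG1: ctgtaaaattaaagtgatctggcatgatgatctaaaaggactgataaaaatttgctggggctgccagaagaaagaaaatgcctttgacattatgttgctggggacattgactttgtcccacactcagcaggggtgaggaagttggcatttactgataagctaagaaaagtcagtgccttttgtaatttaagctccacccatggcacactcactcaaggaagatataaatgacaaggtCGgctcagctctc
OR2L2: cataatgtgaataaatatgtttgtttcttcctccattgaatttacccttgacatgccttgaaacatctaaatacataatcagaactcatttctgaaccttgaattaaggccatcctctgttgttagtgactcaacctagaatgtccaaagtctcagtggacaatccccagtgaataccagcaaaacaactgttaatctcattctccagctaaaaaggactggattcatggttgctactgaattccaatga

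Members also held annotated microRNAs. The RefSeq table places 14 mature microRNAs in 4 of the peaks, and 10 of these come from a cluster antisense to RTL1, an imprinted retrotransposon-derived gene, under the 8335-base peak chr14:100876757-100885091. The sequences below are 3 arms of that cluster, picked as examples, and the microRNA under a peak that the authors called Down. Capitals mark the seed (bases 2 to 8), and the 4 seeds differ from each other. MiR-23c lies at chrX:20017101-20017122 on the minus strand, inside the peak over MAP7D2. Levels of the microRNAs were not analysed here.
miR-127-3p: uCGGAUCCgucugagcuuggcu
miR-136-5p: aCUCCAUUuguuuugaugaugga
miR-433-3p: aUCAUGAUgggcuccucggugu
miR-23c: aUCACAUUgccagugauuaccc

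The exon peaks had a slightly lower median width than the whole list and included a few very wide domains. Their median width was 3260 bases (95% interval of the median 2992 to 3518), with quartiles of 1824 and 6006 and a range from 283 to 1284444 bases. The whole list had a median of 3633 (3604 to 3663). Promoter peaks had a median of 2966 bases, TTS peaks (at transcription termination sites) 3181.5, intron peaks 3544 and intergenic peaks 3702, while the 60 exon peaks over zinc finger genes had a median of 20674.5. The members covered 5366.57 kb in all, and the widest of them alone made up 23.9% of that length. Intervals of peak counts and widths cover counting error only, since peaks of 1 list share their libraries.

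The widest member, chr15:24037403-25321846, is 1284444 bases long and covered the imprinted Prader-Willi region, including NPAP1, SNRPN, SNURF, the lncRNA PWRN1 and 77.7% of SNHG14. It was called in both hairpin groups. The next in width lay over WWOX (204494 bases), which encodes an oxidoreductase and spans a common fragile site, TPTE (166011 bases), a testis-expressed phosphatase-like gene near the centromere of chromosome 21, AUTS2 (145445 bases), a neurodevelopmental gene, and NELL1 (87659 bases), which encodes a secreted growth regulator. CTC-459F4.3 with CTC-459F4.5 (75268 bases), POTEM (69601 bases) and LINC02346 (60425 bases) completed the 8 widest. All 8 were called in both hairpin groups, and none carried a Down or Up call.

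Every member overlapped a gene of the count table, and its midpoint lay in a gene body. Together the peaks touched 826 genes, 449 of them protein-coding (54.4%) and 377 lncRNA genes. The protein-coding share in the whole table was 54.2%. A single gene lay under 506 of the peaks, 2 genes under 130, and 3 or more under 29. XACT, an X-linked lncRNA known from human pluripotent cells, stood out by number: 27 members lay over it, among 35 peaks of any class, and together the 27 covered 31.8% of its 442.99 kb. Of these 27, 11 were called in both hairpin groups, 9 in shCTRL alone and 7 in shZNF274 alone. XACT itself was scarcely transcribed, at no more than 0.309 CPM (counts per 1e6 counts, scaled by TMM factors) in any of the 12 libraries. HELLPAR, a very long lncRNA, had 4 members, and 11 other genes had 3, including KCNQ1, KCNQ1OT1, CCDC168, FLG-AS1 and the protocadherin genes PCDHA1 to PCDHA4 and PCDHGA1.

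Exon peaks lay towards the 3′ ends of coding genes. Of the 270 members whose midpoint fell in a lone protein-coding gene with a RefSeq strand, 50.4% had it in the last 25% of the gene and 12.2% in the first 25%. The median position was 75.5% of the way from the 5′ end. For the 51 such peaks over zinc finger genes the median was 81.9%, with 54.9% in the last 25%. For 13057 intron peaks it was 46.5%, with 20.1% in the last 25%. Midpoints in the last 10% of the gene made up 32.6% of the members and 6.43% of the intron peaks. Exon lengths are not in the tables used, so the position was not set against the lengths of first and last exons.

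The peaks were spread over the chromosomes, with 59 on chromosome 1, 56 on chromosome 5, 55 on chromosome 2 and 37 on the X chromosome. Chromosome 19, where many zinc finger genes lie, held 28 of the 665 (4.21%) and 1.37% of all peaks in the list. None of those 28 was called Down or Up. Chromosomes 20 (4.51% against 2.65%) and 22 (1.65% against 0.966%) also held more of the members than of the list. Others, such as chromosome 2 (8.27% against 10.02%), held less. The list is mostly intron and intergenic peaks, and these shares were not set against the number of genes per chromosome.

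The hairpin groups shared most of the wide members and few of the narrow ones. Of the 665, 408 (61.4%, exact 95% interval 57.5 to 65.1) were called in both groups, 95 (14.3%) in shCTRL alone and 162 (24.4%) in shZNF274 alone. For all peaks of the list the shares were 64.3%, 13.7% and 21.99%. The median width was 4977 bases for peaks called in both groups, 1838 for shCTRL alone and 1690.5 for shZNF274 alone. Of the 55 peaks under 1000 bases, 4 were called in both groups, against 52 of the 53 between 10000 and 20000 bases and all 26 of at least 20000 bases. The number of samples behind each call is not in the list, so presence in 1 group alone has no replicate error.

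**Figure D1:**
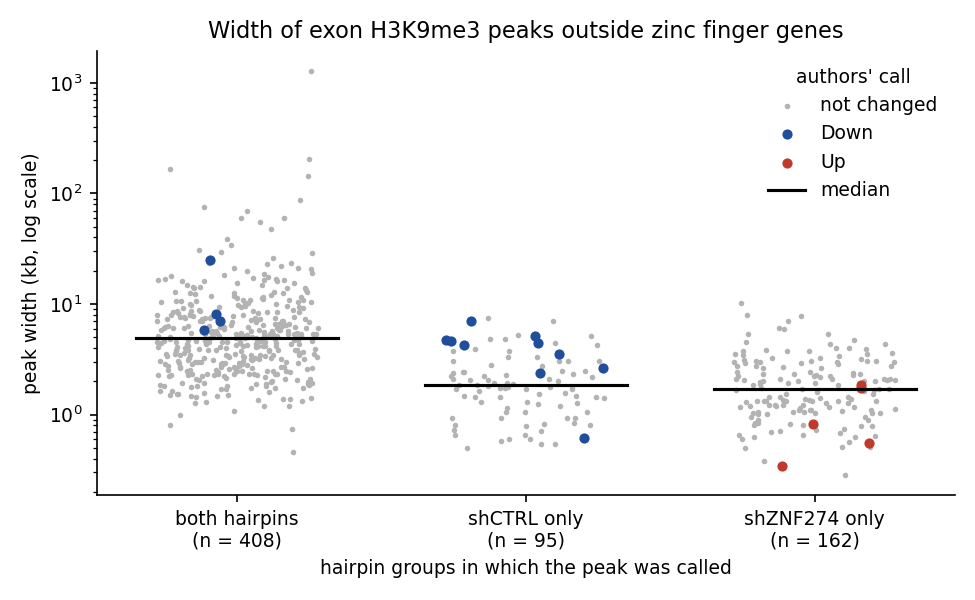
Width of each exon peak outside zinc finger genes (kb, log axis) by the hairpin groups in which the authors called it (408 in both, 95 in shCTRL alone, 162 in shZNF274 alone). Lines are medians (4977, 1838 and 1690.5 bases), blue points are the 14 peaks called Down, red points the 5 called Up, and the widest peak stands at the top of the left column.

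In the authors' deposited table, 14 of the 665 members were called Down in shZNF274 against shCTRL, which is 2.11% (exact 95% interval 1.16 to 3.51), where 0.64% of all tested peaks had that call. Up was called for 5 members, 0.752% (0.245 to 1.75), where 0.383% of all tested peaks had it. The Down share was 0.642% (0.550 to 0.744) for intron peaks, 1.51% (0.728 to 2.76) for promoter peaks and 1.83% (1.03 to 3.01) for TTS peaks. For exon peaks over zinc finger genes it was 11.7% (4.82 to 22.6), 7 of 60. The interval of the members lies above that of the intron peaks and overlaps those of the promoter and TTS peaks. The Up share was 0.756% for promoter peaks, close to that of the members, 0.122% for TTS peaks, 0.400% for intron peaks and 0.369% for intergenic peaks. The labels do not state the thresholds of these calls, and no value per sample stands beside them.

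**Figure D2:**
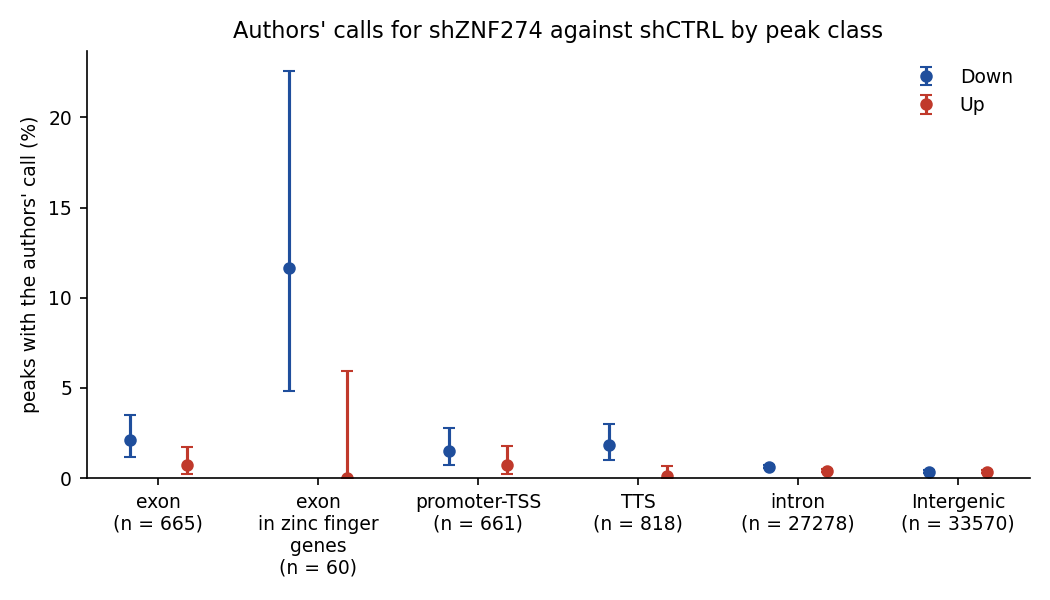
Share of tested peaks with the authors' Down (blue) or Up (red) call for shZNF274 against shCTRL, in percent, by annotation class. All classes but the second exclude peaks over zinc finger genes, and bars are exact 95% binomial intervals. Exon peaks in zinc finger genes have the highest Down share (11.7%), and the exon peaks outside them are at 2.11%.

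The widest Down peak was chr17:5079736-5104796, 25061 bases over ZFP3, which encodes a zinc finger protein whose symbol falls outside the ZNF pattern. It covered 92.9% of the gene and was called in both hairpin groups. The next 5 in width were chr3:66232535-66240603 over SLC25A26, the mitochondrial S-adenosylmethionine carrier (8069 bases), chrX:20011772-20018839 over MAP7D2, a microtubule-associated protein gene (7068 bases), chr2:96913433-96920428 over FAM178B (6996 bases), chr1:161046765-161052526 over ARHGAP30 (5762 bases), and chr16:84324347-84329479 over WFDC1 (5133 bases). Of the 14 Down peaks, 10 had been called in shCTRL alone and 4 in both groups.

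All 5 Up peaks had been called in shZNF274 alone and were narrow, with a median of 823 bases. They lay over LINC01647 (1832 bases), ADIPOQ with ADIPOQ-AS1, the adiponectin locus (1752 bases), ACSM2A, a mitochondrial acyl-CoA synthetase gene (823 bases), PIK3CG, a catalytic subunit of PI3-kinase (550 bases), and CCDC168 (339 bases). Only 2 of the 5 were at least 1000 bases wide.

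Many genes under the exon peaks had too few reads to be tested in ASPC1, and the share with enough was lower where more of the gene lay under the mark. Reads enough to be tested were found for 275 of the 826 genes, and 206 (24.9%) had no count in any of the 12 libraries. Having no count was not particular to members. It held for 16.9% of their coding genes and 14.3% of all coding genes, and for 34.5% and 41.3% of lncRNA genes. Among protein-coding genes under members, 44.8% passed the filter (201 of 449), against 64.7% of all 19955 coding genes and 56.6% of the 5735 coding genes that lay under H3K9me3 peaks of other classes only. For lncRNA genes the shares were 19.6% under members and 19.3% overall. Coding genes passed in 54.7% of cases where under 10% of the gene lay under peaks, in 46.2% where 10% to 50% did, and in 22.5% where 50% or more did. The order was the same for lncRNA genes, at 27.6%, 23.2% and 9.92%. The share with no count in any library had no such order among coding genes, at 14.9%, 11.8% and 35%, and rose among lncRNA genes, from 22.4% to 28.3% and 50.4%. Both the share of a gene under peaks and its number of reads depend on gene length, and the part of length in these orders was not tested. Of the 826 genes, 533 share bases with another gene, which can also affect their counts.

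Genes transcribed under broad cover included AUTS2, with 90.6% of its body under peaks, and WWOX, with 82.9%. AUTS2 was at 9.5, 9.87 and 8.85 CPM in siCTRL, and WWOX at 4.34, 4.3 and 4.52 CPM. SNRPN and SNURF, wholly under the widest peak, had 0 counts in all 12 libraries, and NPAP1 had 14 counts in total. SNRPN and SNURF overlap each other and further transcripts, and the labels do not say whether reads shared between genes were counted, so their zeros do not by themselves show silence. OR2L2 and SEMG1, whose CG-poor windows are printed above, did not pass the filter, nor did MAGEC1, whose window held 11 CGs. PCDHB10, with 4 CGs in its window, passed it. DRD1, with the most CGs of the windows shown, was transcribed at 6.66, 7.53 and 7.83 CPM in siCTRL. CPM is not scaled by gene length, so levels of different genes are not compared.

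The targeted gene was read first. ZNF274 mRNA was at 15.8, 16.3 and 20.6 CPM in the libraries labelled siCTRL and at 16.6, 19.2 and 22.4 CPM in those labelled siZNF274. The groups overlapped, and the difference of 0.15 on the log2 scale (SE 0.11) did not pass edgeR's test (adjusted p = 0.305); without siCTRL replicate 3 it was 0.28 in the direction of more mRNA (adjusted p = 0.0445). The label siZNF274 was thus not matched by a lower ZNF274 mRNA, and each direction below refers to libraries by their label. In the DMSO libraries ZNF274 was at 14.5, 12.3 and 14.3 CPM, and with azacitidine at 20.1, 18.9 and 18.6 CPM, higher by 0.49 log2 (SE 0.11, adjusted p = 0.00317).

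Writers and readers of the mark were all transcribed. Of 24 genes of the H3K9me3 machinery, 2 were higher (CBX3 and KDM4B) and 7 lower (SETDB2, ATF7IP, CBX5, PPHLN1, HELLS, LBR and KDM4A) in the libraries labelled siZNF274. These are 8.33% and 29.2% of the list, beside 21.5% and 24.2% of all tested genes. With azacitidine ZNF274, TRIM28 and CBX5 were higher and SETDB2 and KDM4A lower, or 12.5% and 8.33%, beside 17.2% and 18.6% of all tested genes. SETDB1 was between 66.2 and 80.7 CPM in the 12 libraries and did not pass in either comparison. TRIM28 did not pass in the siRNA comparison (0.01 log2, SE 0.06) and was higher with azacitidine by 0.22 log2 (SE 0.06).

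Between the libraries labelled siZNF274 and siCTRL, 47 of the 275 tested genes under exon peaks were higher (17.1%) and 71 lower (25.8%). Over all 16186 tested genes 21.5% were higher and 24.2% lower. Changes of at least 2-fold numbered 15 and 17 of the 275, beside 611 (3.77%) and 423 (2.61%) of the 16186 tested genes. Both are larger shares than among all tested genes, but the genes were not matched by level. The median log2 fold change of the 275 was -0.03, and of all tested genes -0.00. In such bulk libraries, fewer cells of a kind and less RNA per cell cannot be told apart.

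The genes with the largest rise in the libraries labelled siZNF274 had varied roles. NES, which encodes the intermediate filament nestin of progenitor cells, was at 10.2, 13.3 and 10.5 CPM in siCTRL and at 30.6, 30.2 and 27.2 CPM in siZNF274. All 3 siZNF274 libraries were above all 3 siCTRL libraries, with a log2 fold change of 1.36 (SE 0.09, adjusted p = 1.4e-08). The NES peak, chr1:156671574-156673178, is 1605 bases wide, was called in both hairpin groups and was not called changed.

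SLC6A7, the brain proline transporter, went from 0.55, 0.541 and 0.393 CPM to 1.5, 1.56 and 1.8 CPM, a log2 fold change of 1.69 (SE 0.24, adjusted p = 2.92e-05). EML6, a microtubule-associated protein gene, went from 21.9, 20.4 and 21.2 CPM to 45.9, 47.2 and 52.8 CPM, or 1.20 log2 (SE 0.07). MYO7A, an unconventional myosin of hair cells, went from 3.97, 4.51 and 4.19 CPM to 9.98, 8.98 and 9.78 CPM, or 1.18 log2 (SE 0.11). None of these groups overlapped. The others of the 8 with the largest rise were the lncRNA RP11-321P16.3 (1.502 log2), CUBN, the endocytic receptor cubilin (1.16 log2), SERPINA5, a serine protease inhibitor (1.13 log2), and OPRL1, the nociceptin receptor (1.07 log2).

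The largest falls were in genes for an amino acid transporter, a mucin and a glycosidase, followed by KCNQ1 (-1.79 log2). SLC6A19, the neutral amino acid transporter of gut and kidney, was at 8.8, 9.82 and 8.88 CPM in siCTRL and at 2.89, 2.04 and 2.21 CPM in siZNF274, a log2 fold change of -1.94 (SE 0.13, adjusted p = 1.08e-08). MUC5B, a gel-forming mucin under a 16466-base peak, went from 20, 21.7 and 21.2 CPM to 6.42, 5.89 and 4.53 CPM, or -1.90 log2 (SE 0.12). MYORG, a glycosidase gene, went from 88.4, 93.9 and 84.7 CPM to 26.2, 26.2 and 22.8 CPM, or -1.83 log2 (SE 0.06). Every library labelled siZNF274 was below every siCTRL library for these genes. LINC00886 (-1.51 log2), DHRS2, a dehydrogenase gene (-1.34), F5, coagulation factor V (-1.32), and NPFFR1, a neuropeptide FF receptor (-1.21), followed.

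KCNQ1 and its antisense lncRNA KCNQ1OT1 share 3 exon peaks in an imprinted domain of chromosome 11, of 5654, 1805 and 38669 bases, all called in both hairpin groups. KCNQ1, a voltage-gated potassium channel, was at 7.01, 8.4 and 8.85 CPM in siCTRL and at 2.62, 2.23 and 2.16 CPM in siZNF274, or -1.79 log2 (SE 0.13, adjusted p = 2.52e-08). KCNQ1OT1, which silences neighbouring genes on the paternal chromosome, was at 12.4, 11.8 and 9.14 CPM in siCTRL and at 19.2, 17.1 and 20.3 CPM in siZNF274, or 0.76 log2 (SE 0.11, adjusted p = 2.32e-05). The pair moved in opposite directions in the siRNA comparison. With azacitidine, KCNQ1 went from 6.93, 6.96 and 6.42 CPM to 2.35, 1.77 and 2.17 CPM, or -1.69 log2 (SE 0.13, adjusted p = 7.43e-08), and KCNQ1OT1 from 11, 9.83 and 10.8 CPM to 10.3, 12 and 10.5 CPM, with overlapping groups and no call (0.05 log2, SE 0.11, adjusted p = 0.751). The genes overlap, and the labels do not say whether reads were counted by strand, so part of either value may belong to the other.

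Azacitidine against DMSO gave 43 higher (15.6%) and 59 lower (21.5%) of the 275 genes. Over all tested genes 17.2% were higher and 18.6% lower. At least 2-fold changes numbered 19 and 9 of the 275, beside 559 (3.45%) and 296 (1.83%) of the 16186 tested genes. Both are again larger shares, without matching by level. The median log2 fold change of the 275 was -0.06.

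SERPINA5 rose most among the genes above the level required for naming, from 0.102, 0.225 and 0.24 CPM in DMSO to 1.69, 2.16 and 1.78 CPM with azacitidine, or 3.30 log2 (SE 0.27, adjusted p = 1.32e-07). MDGA1, a cell-surface glycoprotein of neuronal adhesion, went from 0.307, 0.366 and 0.373 CPM to 3.06, 3.25 and 3.41 CPM, or 3.21 log2 (SE 0.22). NES went from 5.91, 5.8 and 5.92 CPM to 22.7, 26.7 and 24.1 CPM, or 2.06 log2 (SE 0.10). No group overlapped with its control in these genes. CACNA1A, a neuronal calcium channel, went from 3.43, 3.38 and 3.54 CPM to 9.79, 9.71 and 9.7 CPM, or 1.495 log2 (SE 0.11), and was also higher in the libraries labelled siZNF274 (0.94 log2, SE 0.10). LINC01694 (2.56 log2), TTC7B (1.66), AOX1, an aldehyde oxidase (1.20), and the membrane mucin MUC12 (0.97) made up the 8.

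KCNQ1 had the largest fall with azacitidine, followed by MYORG, from 73.9, 72 and 72.3 CPM to 27.5, 27.8 and 28.7 CPM, or -1.38 log2 (SE 0.06, adjusted p = 1.48e-10). The lncRNA RP4-738P15.7 (-1.30 log2), MGLL, a monoacylglycerol lipase (-1.11), F5 (-1.10), MUC5B (-0.97), SLC6A19 (-0.97) and UGT1A10, a drug-conjugating transferase (-0.87), were the others. MUC5B was at 15.2, 18.6 and 13.8 CPM in DMSO and at 7.84, 7.6 and 8.75 CPM with azacitidine, without overlap.

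The siRNA and azacitidine comparisons share no library. Of the 71 genes lower in the libraries labelled siZNF274, 35 were also lower with azacitidine, which is 49.3% of the former and 59.3% of the 59 of the latter. Over all tested genes the corresponding shares were 35.7% and 46.6%. For higher genes, 12 were called in both, 25.5% of 47 and 27.9% of 43, where all tested genes gave 32.3% and 40.3%. Opposite calls were made for 6 genes higher with the siRNA label and lower with azacitidine and for 8 genes the other way. These are 12.8% of the 47 and 11.3% of the 71, near the 12.5% and 10.6% of all tested genes. Set against the azacitidine calls, they are 10.2% of the 59 and 18.6% of the 43, where all tested genes gave 14.5% and 14.8%.

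**Figure D3:**
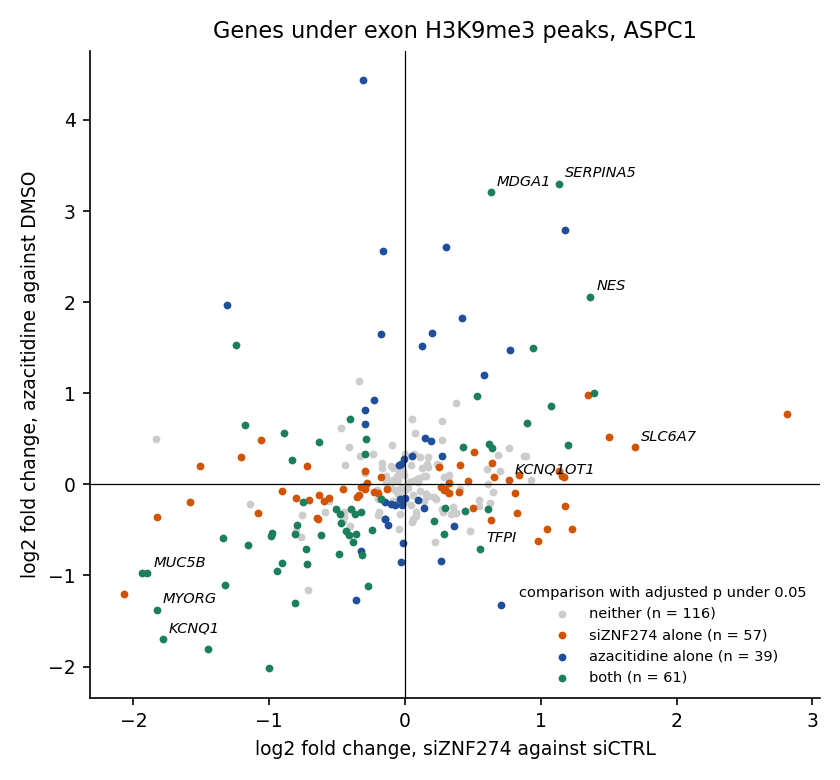
Log2 fold changes of 273 tested genes under exon peaks, siZNF274 against siCTRL (horizontal) and azacitidine against DMSO (vertical), with colour for the comparison in which the adjusted p was under 0.05. SALL1 and NPBWR1, each at 0 counts in a whole group, are not drawn; 61 genes passed in both comparisons, with KCNQ1, MYORG and MUC5B at the lower left and NES and SERPINA5 at the upper right.

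TFPI, the tissue factor pathway inhibitor of coagulation, moved in opposite directions. It was at 370, 345 and 344 CPM in siCTRL, 514, 514 and 526 CPM in siZNF274, 253, 252 and 221 CPM in DMSO, and 157, 142 and 146 CPM with azacitidine. The log2 fold changes were 0.55 (SE 0.06, adjusted p = 8.77e-07) and -0.71 (SE 0.06, adjusted p = 9.84e-08), with no overlap in either comparison. Its peak is 16271 bases wide and was called in both hairpin groups. SGCE, an imprinted sarcoglycan gene, did likewise, at 0.44 log2 (SE 0.07) and -0.29 log2 (SE 0.07).

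**Figure D4:**
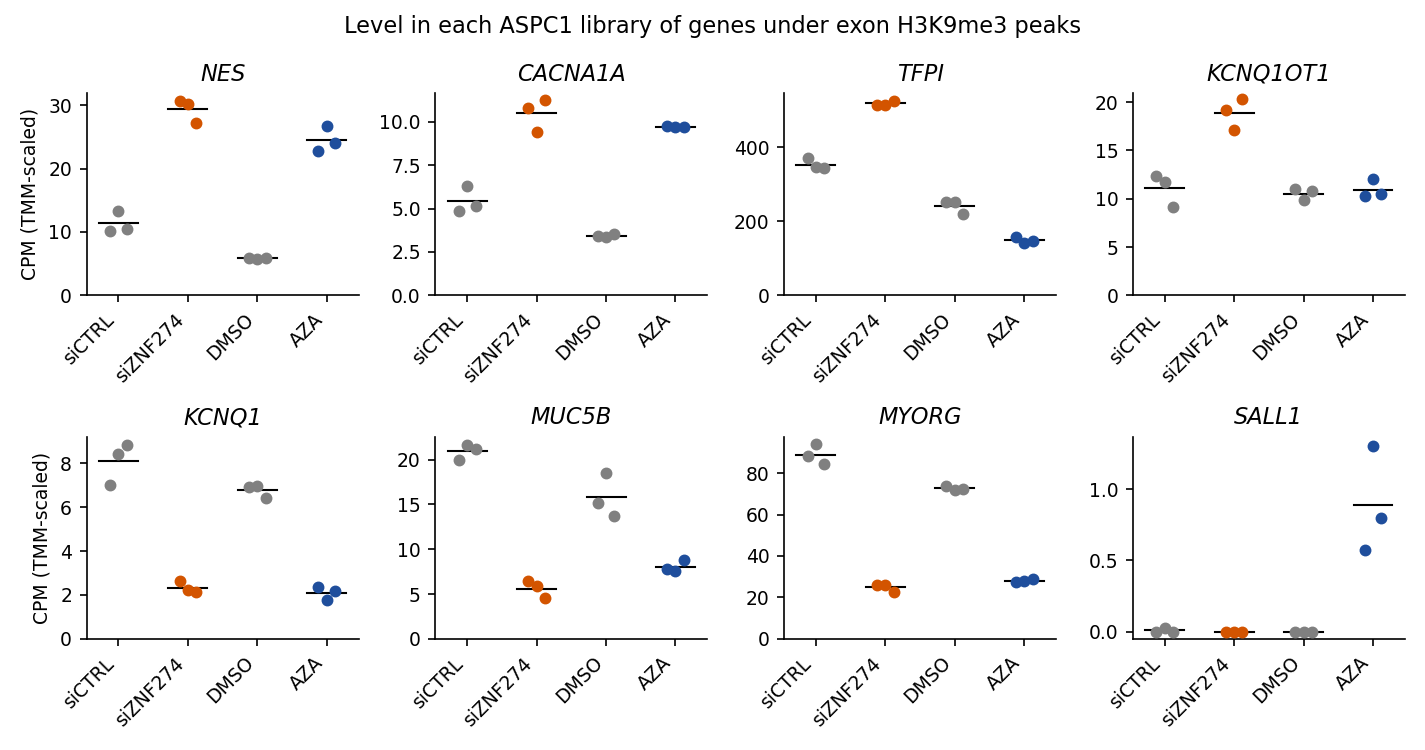
Level of 8 genes under exon peaks in each of the 12 ASPC1 libraries (points, TMM-scaled CPM; 3 libraries per label) with the group mean (line). NES and CACNA1A are higher and KCNQ1, MUC5B and MYORG lower than control in both comparisons, TFPI moves in opposite directions, and SALL1 has counts above 1 per library only with azacitidine.

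The 14 Down peaks lay over 22 genes, 12 of which were tested. Of these 0 were higher and 1 was lower in the libraries labelled siZNF274, and 1 was higher and 2 lower with azacitidine. Every lower call was of PCDHGB1 or PCDHGA4. These belong to 5 overlapping gamma protocadherin genes under the same 615-base Down peak, so the 12 genes are not separate cases. The shares of all tested genes are 21.5% and 24.2%, and 17.2% and 18.6%, and 12 genes are too few to set against them. The higher gene is SALL1, which could not have been called in the siRNA comparison, with 1 count in its 6 libraries. ZFP3, under the widest Down peak, was at 12.7, 8.71 and 10.5 CPM in siCTRL and at 12.2, 9.56 and 11.1 CPM in siZNF274, with overlapping groups (0.05 log2, SE 0.15, adjusted p = 0.833). SLC25A26 was at 9.99, 10.5 and 12.2 CPM and at 9.95, 10.8 and 9.18 CPM, again overlapping (-0.12 log2, SE 0.11, adjusted p = 0.386). MAP7D2, FAM178B, ARHGAP30 and WFDC1 did not pass the filter. The hairpin and the siRNA are different reagents in separate experiments, so a peak and a transcript were never measured in the same samples.

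SALL1, a zinc finger transcription factor gene of kidney development, lay under a 4727-base Down peak called in shCTRL alone; it was singled out after its values were seen. It had 0 counts in all 3 DMSO libraries and 20, 50 and 31 counts with azacitidine, or 0.572, 1.3 and 0.8 CPM. Against a floor of 3 counts per DMSO library, this is at least 10.6-fold higher. The gene passed the filter only through these libraries, where it is high, so the difference is given as a description. SALL1 also had 0 counts in all 3 libraries labelled siZNF274 and 1 count over the 3 siCTRL libraries. No rise was detectable there at this depth.

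The 5 Up peaks lay over 6 genes, of which CCDC168 alone was tested. It was at 0.384, 0.169 and 0.0799 CPM in DMSO and at 0.486, 0.911 and 0.619 CPM with azacitidine, or 1.65 log2 (SE 0.48, adjusted p = 0.0135). The call was lost without AZA replicate 2 (1.37 log2, adjusted p = 0.0756), DMSO replicate 2 (1.52 log2, 0.0544) or DMSO replicate 3 (1.27 log2, 0.0582). The siRNA comparison gave no call (-0.18 log2, SE 0.56).

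Clustered protocadherins, neuronal adhesion genes with long variable exons, were the family with the most genes under members: 31 genes under 8 peaks. Any overlap with the gene body counts, and the bodies overlap each other, so 1 peak of 622 bases counts for 11 alpha genes. The alpha-cluster genes under members and PCDHB3 did not pass the filter, while the other 19 beta and gamma genes did. In the siRNA comparison PCDHGA5, PCDHGB4 and PCDHGA8 were higher and PCDHB10, PCDHGB1 and PCDHGB2 lower, 15.8% of the 19 in each direction. With azacitidine PCDHGB1, PCDHGA4 and PCDHGB2 were lower and none of the 19 was higher. No share was above that of all tested genes (21.5% and 24.2%, and 17.2% and 18.6%), beside which the counts of the smaller families below also stand. PCDHGB1, which starts upstream of the 615-base Down peak in this cluster, was at 5.76, 7.09 and 7.6 CPM in siCTRL and at 3.34, 4.05 and 3.56 CPM in siZNF274, or -0.90 log2 (SE 0.13, adjusted p = 3.73e-05).

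Calls of 3 of these genes rested on particular libraries. PCDHB10 lost its call without siCTRL replicate 1 (-0.48 log2, adjusted p = 0.117) or siZNF274 replicate 2 (-0.65 log2, 0.0618). PCDHGB4 lost it without any of siCTRL replicates 1, 2 and 3 or siZNF274 replicates 2 and 3 (adjusted p from 0.0583 to 0.164), or with DESeq2 (0.0573). PCDHGA8 lost it without siCTRL replicate 2 or 3 or siZNF274 replicate 1 or 2 (0.0787 to 0.127). Gamma genes share their 3′ exons, and the labels do not say how such reads were divided, so these values are uncertain.

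Of 7 mucin genes under members, 5 were tested. MUC17, a membrane mucin of the gut, was at 620, 584 and 473 CPM in siCTRL and at 384, 405 and 415 CPM in siZNF274, or -0.48 log2 (SE 0.09, adjusted p = 0.000435). With azacitidine it was lower, at -0.33 log2 (SE 0.09, adjusted p = 0.0101), and without DMSO replicate 1 the value was -0.24 (adjusted p = 0.0606). MUC5B was lower in both comparisons, MUC3A was lower with azacitidine (-0.38 log2), and MUC5AC, a gel-forming mucin of stomach and airway with 67.2% of its body under peaks, did not exceed 0.524 CPM and was not called. MUC12 went the other way, with 0.97 log2 (SE 0.15, adjusted p = 0.000139) with azacitidine and 0.53 log2 (SE 0.17, adjusted p = 0.0167) in the siRNA comparison, where the call was lost without siCTRL replicate 1 (0.33 log2, 0.0754) or siZNF274 replicate 2 (0.41 log2, 0.0839).

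Ductal epithelial markers moved beside the mucins. All 10 were transcribed, and 8 of 10 were lower in each comparison. Their summed level was 9985 to 11359 CPM in siCTRL, 7254 to 7975 CPM in siZNF274, 13855 to 15548 CPM in DMSO and 9595 to 9907 CPM with azacitidine, and their part in the mucin values was not tested. Of all tested genes 24.2% and 18.6% were lower. KRT7, an epithelial keratin, went the other way in both comparisons, at 0.52 log2 (SE 0.19) and 2.41 log2 (SE 0.15), and CLDN4, a tight junction claudin, was higher in the siRNA comparison alone (0.65 log2, SE 0.12).

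Lists for other cell types held both silent and transcribed genes. Of 7 leukocyte markers 4 were tested. PTPRC and CD3E, which define leukocytes and T cells, reached at most 0.0845 and 0.0256 CPM. The leukocyte sum was almost all LYZ, the lysozyme gene, at 163 to 167 CPM in siCTRL, 93.9 to 104 CPM in siZNF274, 266 to 282 CPM in DMSO and 86.1 to 110 CPM with azacitidine, lower in both comparisons (-0.75 log2, SE 0.07, and -1.44 log2, SE 0.07). CD14 (0.60 log2) and CD68 (0.99 log2) were higher with azacitidine. Of 5 endothelial markers 2 were tested. VWF was higher in both comparisons (0.72 and 1.04 log2), with 1.21 CPM at most. TIE1 passed the filter only through the azacitidine libraries (0.572, 0.364 and 0.723 CPM), where it is high. In DMSO it was at 0.0767, 0.0845 and 0.133 CPM, and the difference (2.45 log2) is given as a description. The defining endothelial genes KDR and CDH5 had no counts and at most 0.0276 CPM. The summed endothelial level was 0.55 to 0.917 CPM in siCTRL, 1.08 to 1.4 CPM in siZNF274, 0.486 to 0.648 CPM in DMSO and 1.45 to 1.97 CPM with azacitidine. The part of these markers in the values of the genes under exon peaks was not tested.

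Among detoxifying enzymes, UGT1A10 was at 9.5, 10.3 and 9.6 CPM in siCTRL and at 6.31, 6.05 and 5.5 CPM in siZNF274, or -0.72 log2 (SE 0.11). UGT1A1 was lower in both comparisons too, at -1.16 log2 (SE 0.17) and -0.66 log2 (SE 0.16). These transferases share 3′ exons and 1 member peak of 6056 bases, so their reads may be divided between them. Of 11 genes in the family list 3 were tested.

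Of 5 collagen genes 3 were tested, and COL6A3 and COL1A2 were higher with azacitidine, both from a low level. COL6A3 went from 0.128, 0.0563 and 0.133 CPM to 1, 0.651 and 0.645 CPM, or 2.79 log2 (SE 0.52, adjusted p = 0.000531). COL1A2, which encodes a chain of type I collagen, went from 0.128, 0.0563 and 0.0266 CPM to 0.229, 0.468 and 0.645 CPM, or 2.61 log2 (SE 0.52, adjusted p = 0.000916). In the siRNA comparison COL20A1 was called higher (1.35 log2, SE 0.39, adjusted p = 0.0103), and the call was lost without siCTRL replicate 1 (1.11 log2, 0.0527) or siZNF274 replicate 2 (1.09 log2, 0.0574). COL1A2 is also 1 of 6 fibroblast markers, of which 4 were tested. The summed fibroblast level, 102 to 113 CPM in DMSO and 97.6 to 107 CPM with azacitidine, was almost all LUM, a matrix proteoglycan gene, and the other markers stayed under 1 CPM in each library. Besides COL1A2, PDGFRB, a growth factor receptor of mesenchymal cells, was higher with azacitidine (1.32 log2, SE 0.41, adjusted p = 0.0203), and LUM was higher in the siRNA comparison (0.19 log2, SE 0.06). COL1A1, the remaining tested marker, was called neither in the siRNA comparison (0.69 log2, SE 0.35) nor with azacitidine (-0.05 log2, SE 0.35). The part of this list in the collagen values was not tested.

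Tissue-restricted families were close to silent. Of 16 olfactory receptor genes, 9 had no count in any library and none passed the filter. None of the 5 cancer-testis and germline genes passed either, nor any of the 3 keratin and keratin-associated genes. In the epidermal differentiation complex, a group picked after its names were seen, FLG had no counts and HRNR almost none, while 2 of 7 genes, TCHH and FLG-AS1, were tested and not called. Among 13 genes of imprinted loci, also picked after the names were seen, KCNQ1, KCNQ1OT1 and SGCE passed the filter.

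The zinc finger and related regulator genes whose symbols fall outside the ZNF pattern were mostly transcribed, with 7 of 10 past the filter. ZFHX3, a homeodomain zinc finger factor under a peak called in shZNF274 alone, was at 95.2, 104 and 93.8 CPM in siCTRL and at 115, 120 and 124 CPM in siZNF274, or 0.29 log2 (SE 0.05, adjusted p = 0.000136). ZSCAN31 was at 7.34, 8.05 and 7.99 CPM in DMSO and at 13.5, 11.8 and 11.9 CPM with azacitidine, or 0.67 log2 (SE 0.11, adjusted p = 0.000161). ZBTB38, which binds methylated DNA, and ZSCAN29, with 62% of its body under peaks, passed in neither comparison.

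The genes with the highest CPM under members were EIF3E, MUC17, TMEM106B, TFPI, TRIOBP, RAB11FIP1, PON2 and IDE. TMEM106B, a lysosomal membrane protein gene under a 4721-base peak, was at 499, 454 and 466 CPM in siCTRL and at 295, 311 and 320 CPM in siZNF274, or -0.62 log2 (SE 0.05, adjusted p = 1.46e-07). PON2, a mitochondrial lactonase, was lower, at -0.39 log2 (SE 0.05), and so was RAB11FIP1, a vesicle-recycling effector, at -0.41 log2 (SE 0.05). With azacitidine these 3 genes were lower as well, at -0.56, -0.63 and -0.55 log2.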

How the data were processed

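Peaks, groups and calls are those of the deposited H3K9me3 list of ASPC1 CUT&RUN (antibody-guided chromatin cleavage). Its score column, a deposited score, is equal in every peak and was not used. Per the submitters' processing notes, MACS2, HOMER, featureCounts and edgeR were among the tools, with hg38. The labels do not say whether replicates were pooled for peak calling. For RNA-seq the authors deposited raw counts per gene, made with STAR 2.7.10b on hg38 per the submitters' processing notes. A peak was joined to a gene by an overlap of at least 1 base.

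The 12 ASPC1 libraries (31415743 to 39893151 counts) were fitted together with edgeR 4.0.16: filterByExpr, TMM scaling, its quasi-likelihood test, with p-values adjusted by Benjamini-Hochberg over 16186 genes and called at 0.05. Replicates within a group were not identical. The labels do not say whether they were separate cultures, so p-values rest on the spread between these libraries, which may be technical. Levels are CPM per library, and SE belongs to the log2 fold change. Intervals of shares are exact (Clopper-Pearson, 95%), and those of median widths are ranked widths at binomial quantiles (95%).

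Members and lists were chosen with earlier results of these data known, and the imprinted, epidermal and XACT groups after the members' names were seen. Named were the 8 widest peaks, the 6 widest of each authors' call, the genes with most peaks, the 8 largest changes per direction (no overlap of groups, mean of at least 1 CPM), the 8 highest levels, and list members. Alternatives were DESeq2 1.42.0, other scalings, no filter, fewer libraries, a replicate block and other peak rules.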

Additional observations from a re-analysis of the deposited data

How the results depend on the processing

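Keeping only peaks of at least 1000 bases moved the median width from 3260 to 3529 bases and the share called in both hairpin groups from 61.4% to 66.2%. The other peak rules (exclusion at 50% of the peak, a wider zinc finger pattern, no chromosome 19, and, chosen after seeing the data, no peaks over XACT) gave 637 to 674 peaks and left the median width and the call shares within their 95% intervals. Leaving out a library gave 36 to 47 genes higher and 65 to 74 lower for siZNF274 against siCTRL, and 36 to 46 higher and 47 to 58 lower for azacitidine against DMSO. DESeq2 gave 38 and 70, and 43 and 56. With upper quartile scaling the counts were 58 and 67, and 45 and 51. The replicate numbers did not pair the libraries (same-number correlations 0.088, 0.065 and 0.144 for the siRNA groups, 0.021, 0.045 and 0.117 for azacitidine), and a fit with the replicate block gave 49 and 74, and 46 and 63. Of 2103 values of named genes under these alternatives, 2018 kept their side of the threshold, 52 lost a call and 33 gained one. No value with a call in either fit changed direction. A change of direction in values without a call was not counted. Genes without enough reads were not tested, which limits what the data show for 551 of the 826 genes.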
